A study of Mus musculus with 19 samples.

Results

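The DEAD and DEAH box RNA helicases were taken as every gene of the count files whose symbol is Ddx or Dhx followed by a number and, where present, the letter a or b. That rule found 51 of the 54352 genes listed, 35 with a Ddx symbol and 16 with a Dhx symbol. *Ddx3x* and *Ddx3y*, whose symbols end in x and y, fall outside it, as do helicases with other names such as the *Eif4a* genes. All 51 were described across 19 RNA-seq libraries from mouse bone marrow progenitors, which were 9 libraries of common myeloid progenitors (CMPs) and 10 of LSK cells, the lineage-negative, Sca-1-positive, c-Kit-positive population that holds the stem cells and that the labels call KLS.

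HSCs from C57BL/6 donors carried a doxycycline-inducible shRNA and were transplanted into sublethally irradiated C57BL/6-CD45.1; cKit-w41 mice of both sexes. After 10 weeks of reconstitution the animals, in every group alike, received doxycycline food for 6 days, and cells that expressed the zsGreen reporter of the vector were sorted. The shRNAs were sh10 and sh20 against the lncRNA *Spehd*, also called lnc12928, and a control shRNA against *Renilla* luciferase, a gene that mice do not have. There were 3 CMP libraries for sh10, 2 for sh20 and 4 for *Renilla*, and 3, 3 and 4 LSK libraries. No counted gene bears the name *Spehd*, so its knockdown is not analysed here. The cells were donor cells in a host whose own progenitors were reduced but not absent, and the labels do not say whether replicate letters A to D mark separate animals. The p-values below therefore measure the spread between these libraries, which may be partly technical.

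RNA helicases of these families bind RNA and hydrolyse ATP to open short duplexes or to move proteins off RNA. DEAD box proteins usually unwind locally and let go, while DEAH box proteins pull on single strands from one end and are the motors of spliceosome remodelling. Between them they serve splicing, mRNA export, ribosome assembly, translation, RNA decay and the sensing of viral RNA, and *DDX41* is mutated in some inherited myeloid neoplasms. The families are named after the amino acids of one conserved motif, the Walker B motif, which holds the magnesium ion used to split ATP.

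The coding bases of that motif were read from the longest coding transcript of each gene in GENCODE vM21 on GRCm38, the build called mm10 in the study. A single match was found in 50 of the 51 members, and none in *Dhx32*. The letters DEAD were found in 26 members, all with Ddx symbols, and DEAH in 9, which were 8 Dhx genes and *Ddx11*. The other 15 carry a variant, so that the symbol does not tell the letters. The variant was DEVH in 5 members, DEVD in 3, DECD in 2, DECH in 2, DEIH in 2 and DESD in 1. The motif is shown for the members on which the comparisons turned, with its 12 coding bases in capitals and 9 bases on each side.

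Ddx39: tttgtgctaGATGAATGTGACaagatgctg
Ddx39b: tttattttgGACGAGTGTGACaagatgctt
Dhx35: atcatgctgGATGAAGCCCACgagaggacc
Dhx29: gtcattgtcGATGAGGTCCATgagagaagt
Ddx28: atagtgctaGATGAAGTAGACacactgcta
Ddx58: atgatatttGATGAGTGTCATaacactagc
Dhx58: attgtggtgGACGAGTGTCACcacacccac

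*Ddx39* and *Ddx39b* read DECD and are the only members that do. Their capitals lie at chr8:83721110-83721121 in exon 5 of 12 and at chr17:35247090-35247101 in exon 4 of 10, both on the plus strand, and 81.12% of aligned coding positions are identical between the genes. *Dhx35* has a DEAH motif at chr2:158818275-158818286, plus strand, in exon 7 of 22. The DEVH motif of *Dhx29* on chromosome 13 is split by an intron. *Ddx28* has DEVD at chr8:106010558-106010569, minus strand, in its single exon. The RNA sensors *Ddx58* and *Dhx58* share DECH, at chr4:40223885-40223896 in exon 8 of 18 and at chr11:100703238-100703249 in exon 4 of 13, both on the minus strand, although only 49.66% of their aligned coding positions are identical.

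The guide strands of the hairpins, as designed by the study, are given with their seed (bases 2 to 8) in capitals.

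sh10: tACAAAGTcagcttttcctctc
sh20: tATGCTATgacaacccagggca

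A full match to either 22-base target was found in 0 of the 141767 annotated transcripts scanned. The longest run of complementary bases in a member's transcript was 14 bases for sh10, in *Ddx24*, and 10 bases for sh20, in *Dhx36*. Matches to the seed alone were not counted, so pairing through the seed was not tested.

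Libraries held from 3647318 to 5965155 counts on genes after the authors removed duplicate reads. Helicases took from 0.534% to 0.692% of these counts. In CMPs every knockdown library was deeper (4918631 to 5965155) than every *Renilla* library (3857980 to 4314959), and an exact two-sided permutation test gave p = 0.0159, the smallest it can give, so that depth and knockdown cannot be told apart in CMPs by the design. Marker genes were present in both populations. The summed level of 10 stem cell markers was 2626 to 3032 CPM (counts relative to the library total, scaled by TMM) in LSK cells and 1753 to 1875 CPM in CMPs with the *Renilla* shRNA, and 9 erythroid and megakaryocyte markers summed to 1061 to 1410 and 2246 to 2681 CPM. The 9 granulocyte and monocyte markers were higher in LSK cells (1368 to 1578 CPM) than in CMPs (567 to 828 CPM).

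One library stood apart over the helicases. Among the 48 members with a mean of at least 50 counts, LSK sh10 replicate B had the lowest level of the 10 LSK libraries for 22 and the highest for 11. Its log2 differences from the median of the other LSK libraries had an SD of 0.754, against 0.194 to 0.483 in the other 18 libraries, each compared with its own cell type. *Ddx10*, a ribosome assembly factor, was at 30.5 CPM there and at 89.5 to 143 CPM in the other LSK libraries, and *Dhx15*, which releases the spliced-out intron, was at 117 CPM against 239 to 300 CPM. Over these 48 members the difference rose with the GC content of the transcript (Spearman's rho 0.781, a description across genes of 1 library), while rho lay between -0.319 and 0.128 in the others. LSK values below include this library unless stated.

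**Figure D1:**
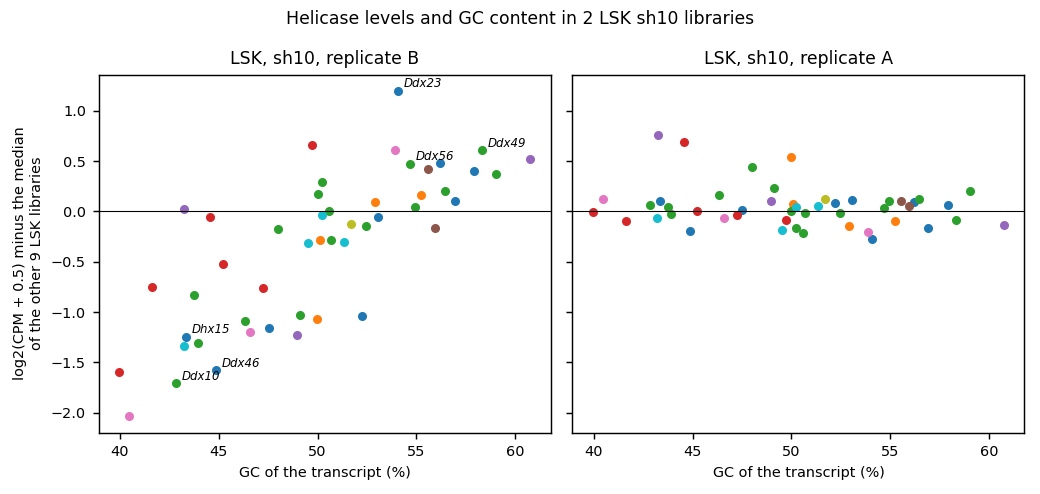
Difference of each of 48 helicases from the median of the other LSK libraries (y axis, log2(CPM + 0.5)) against the GC content of its transcript (x axis, %), in LSK sh10 replicate B and, for comparison, replicate A; colours are roles as in the plot of all libraries. In replicate B low-GC members such as Ddx10 and Dhx15 lie below 0 and high-GC members such as Ddx49 above it, while replicate A stays near 0.

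Levels per kilobase of exon spanned a wide range among the members. Over all 19 libraries *Ddx56*, a nucleolar factor of the large ribosomal subunit, was highest at 80.1 CPM per kilobase. *Ddx39b* and *Ddx39*, which hand spliced mRNA to the export machinery, were at 64.1 and 57.9 CPM per kilobase, *Ddx41* at 63.7 and *Ddx1* at 54.9. At the other end *Ddx25*, *Ddx43* and *Ddx4*, known from germ cells, were at 0.196, 0.879 and 2.0 CPM per kilobase. *Ddx4*, the Vasa homologue, ran from 1.54 to 16.4 CPM across the libraries. *Ddx23*, a DEAD box helicase of the U5 snRNP, was also low at 1.85 CPM per kilobase, as were *Dhx9* (3.54) and *Ddx6* (4.66). With the *Renilla* shRNA *Ddx56* was first in both populations, at 85.4 ± 4.39 CPM per kilobase for CMPs and 71.9 ± 1.56 for LSK cells (4 libraries each, ± SD). In LSK cells *Ddx39b* (63.5 ± 1.45), *Ddx41* (61.6 ± 7.50) and *Ddx5* (60.0 ± 2.14) followed and lay within each other's spread. In CMPs *Ddx39b* (73.2 ± 2.17) and *Ddx39* (71.7 ± 3.47) were next, also within their spread, and *Ddx5* (57.2 ± 0.404) came lower. These per-length levels use all annotated exons of a gene, and a gene expressed from a short isoform is understated by them. For 9 members more than 10% of the 50-base windows of their transcripts also occur in transcripts of other genes, among them *Ddx18* (62.7%, mostly processed copies such as *Gm16433*), *Ddx19a* (33.3%, all with *Ddx19b*), *Ddx5* (22.7%), *Ddx39* (16.6%, mainly the overlapping opposite-strand gene *Adgre5*) and *Ddx54* (15.7%). Their counts are therefore less certain.

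**Figure D2:**
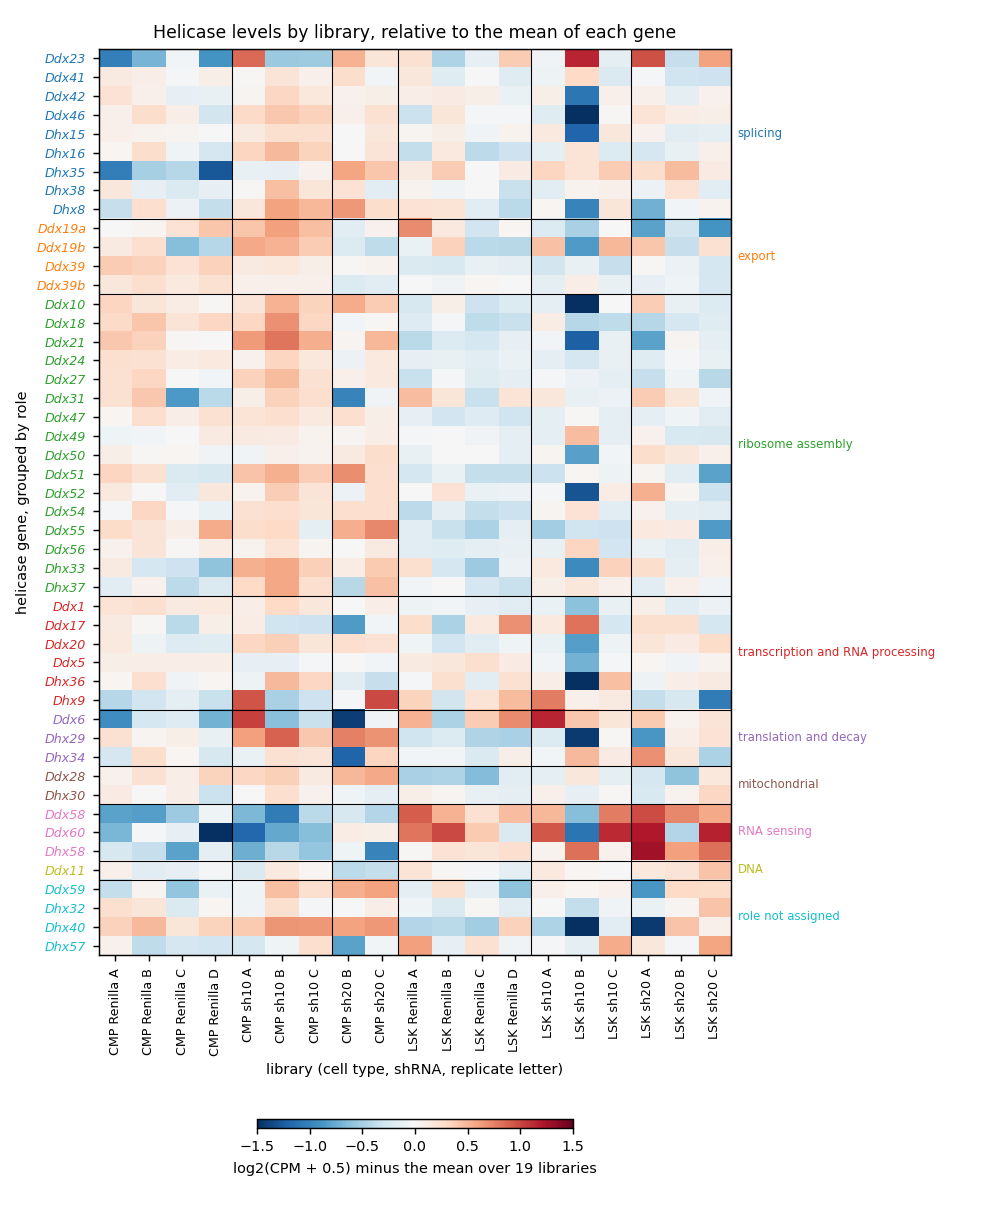
Level of 48 helicases (rows, grouped and coloured by role) in the 19 libraries (columns), as log2(CPM + 0.5) minus the mean of each gene over all libraries, red above and blue below, with the scale ending at 1.5. The RNA sensing members are mostly blue in CMPs and mostly red in LSK cells, and the column of LSK sh10 replicate B differs from its neighbours.

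CMPs were first compared with LSK cells that carried the *Renilla* shRNA, which asks how the helicases differ between the progenitors when *Spehd* is not targeted. Of the helicases that assemble ribosomes 6 were higher in CMPs, both DECD export helicases were higher, and the sensors of viral RNA had lower levels, of which only that of *Ddx58* passed the test. By edgeR's quasi-likelihood test, Benjamini-Hochberg adjusted over 15066 genes, 12 of 51 members passed the threshold of 0.05, where 19.8% of all genes did. Higher in CMPs were 10 members (11% of all genes) and lower were 2 (8.73% of all genes). Levels of 12 members lay wholly above (15.1% of all genes) and of 4 wholly below (15.8%) those of LSK cells. The share of members called was thus close to that of all genes, with a median log2 fold change of 0.05 over the members and -0.02 over all genes. Leaving out 1 library took the members' median from 0.01 (without LSK Renilla replicate C) to 0.12 (without CMP Renilla replicate C), and it was over 1.5 times the main value without CMP replicate D or LSK replicate A, B or D as well. DESeq2 called the same 12 members, and 22.3% of the genes to which it gave an adjusted p.

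Ribosome assembly factors accounted for 6 of the 10, out of 16 tested, and 14 of the 16 had a positive log2 fold change, with a median of 0.33. With an offset that followed counts per exonic base in each library 11 of the 16 were positive, with a median of 0.22. *Ddx18* was at 50.4, 55.5, 47.5 and 51.3 CPM in the CMP libraries and at 36.1, 40.9, 31.6 and 32.7 CPM in the LSK libraries, replicates A to D. *Ddx55* was at 68.3, 64.1, 60.1 and 83.3 CPM in CMPs and at 50.1, 44.7, 40.4 and 51.3 CPM in LSK cells. Neither gene overlapped between the populations, and their log2 fold changes were 0.57 (SE 0.15, adjusted p = 0.0150) and 0.60 (SE 0.19, adjusted p = 0.0353) by edgeR's quasi-likelihood test. *Ddx47*, *Ddx24*, *Ddx54* and *Ddx27*, which act on pre-ribosomes in the nucleolus, were higher by 0.41, 0.34, 0.38 and 0.33, with adjusted p from 0.00209 to 0.0324 (edgeR), and only *Ddx27* had libraries that overlapped. *Ddx10*, *Ddx21* and *Ddx56* did not pass with all libraries in the fit, but did once LSK sh10 replicate B, which belongs to neither group compared but enters the shared estimate of spread, was left out (log2 fold changes 0.37, 0.50 and 0.30, adjusted p 0.0423, 0.0240 and 0.00514 in edgeR). Without that library 15 members passed and 26.9% of all genes did.

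*Ddx39* had the strongest call among the members. Its CMP libraries were at 384, 376, 343 and 375 CPM and its LSK libraries at 254, 252, 274 and 269 CPM, without overlap, a log2 fold change of 0.53 (SE 0.07, adjusted p = 9.89e-05 by edgeR's quasi-likelihood test). The paralogue *Ddx39b* differed less, at 272, 285, 268 and 283 CPM against 241, 233, 246 and 241 CPM, or 0.24 on the log2 scale (SE 0.07, adjusted p = 0.0165). *Ddx19a* and *Ddx19b*, which act at the cytoplasmic face of the nuclear pore, had log2 fold changes of 0.01 and 0.02 and did not pass. *Ddx28*, a DEVD helicase of mitochondrial ribosome assembly, was at 50.4, 56.5, 51.6 and 61.1 CPM in CMPs and at 34.3, 34.8, 30.6 and 42.8 CPM in LSK cells. All 4 CMP libraries lay above the LSK libraries, and the log2 fold change was 0.66 (SE 0.16, adjusted p = 0.00897, edgeR). *Ddx28* shares exonic bases with *Dus2* on the opposite strand, and the strand of these libraries is not stated. *Ddx1*, of the tRNA ligase complex, was higher by 0.32 (SE 0.09, adjusted p = 0.0254).

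Lower in CMPs were *Ddx58* and *Dhx35*. *Ddx58* encodes RIG-I, the cytoplasmic sensor of RNA with a triphosphate end, and was at 48.1, 47.3, 57.4 and 80.4 CPM in CMPs and at 159, 121, 98.8 and 116 CPM in LSK cells. The populations did not overlap, with a log2 fold change of -1.05 (SE 0.25, adjusted p = 0.00702 by edgeR's quasi-likelihood test). The other sensors had fold changes of the same sign that did not pass. They were *Ddx60*, a cofactor of RIG-I, at -1.04 (SE 0.46, adjusted p = 0.126) and *Dhx58*, the regulator LGP2, at -0.51 (SE 0.23, adjusted p = 0.132). *Dhx35*, a DEAH helicase found in the catalytic spliceosome, was at 22, 32.2, 33.9 and 18.6 CPM in CMPs and at 50.3, 59.5, 45.6 and 49.8 CPM in LSK cells. Its log2 fold change was -0.91 (SE 0.17, adjusted p = 0.00170), the only call among 9 splicing helicases, whose median was 0.04 (-0.05 with the same offset). Leaving out 1 of the 8 libraries compared could end the calls of *Ddx55* (CMP Renilla A, B or D, LSK Renilla A, B or C), *Ddx27* (CMP A or B, LSK A or C), *Ddx54* (CMP B or LSK A), *Ddx39b* (CMP B) and *Ddx1* (LSK A or C), with adjusted p up to 0.112 (edgeR). With that offset the fold change of *Ddx39b* was 0.08 (adjusted p = 0.309), that of *Ddx1* 0.17 (0.269), that of *Ddx27* 0.21 (0.166) and that of *Ddx54* 0.27 (0.0639), and these 4 did not pass. Fewer cells of one kind within a sorted population and less RNA per cell cannot be told apart in bulk libraries. Mature neutrophil markers summed to 1.2 to 10.7 CPM in the CMP and 5.18 to 312 CPM in the LSK *Renilla* libraries, and 6 of the 7 were lower in CMPs (median log2 fold change -4.44, edgeR). Lower too were 8 of 9 granulocyte and monocyte markers and 7 of 10 stem cell markers, and 8 of 9 erythroid and megakaryocyte and 3 of 6 red cell markers were higher (red cell sums 30.5 to 82.0 CPM in CMPs and 5.18 to 10.7 CPM in LSK cells). The part of these lists in the helicase differences was not tested.

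**Figure D3:**
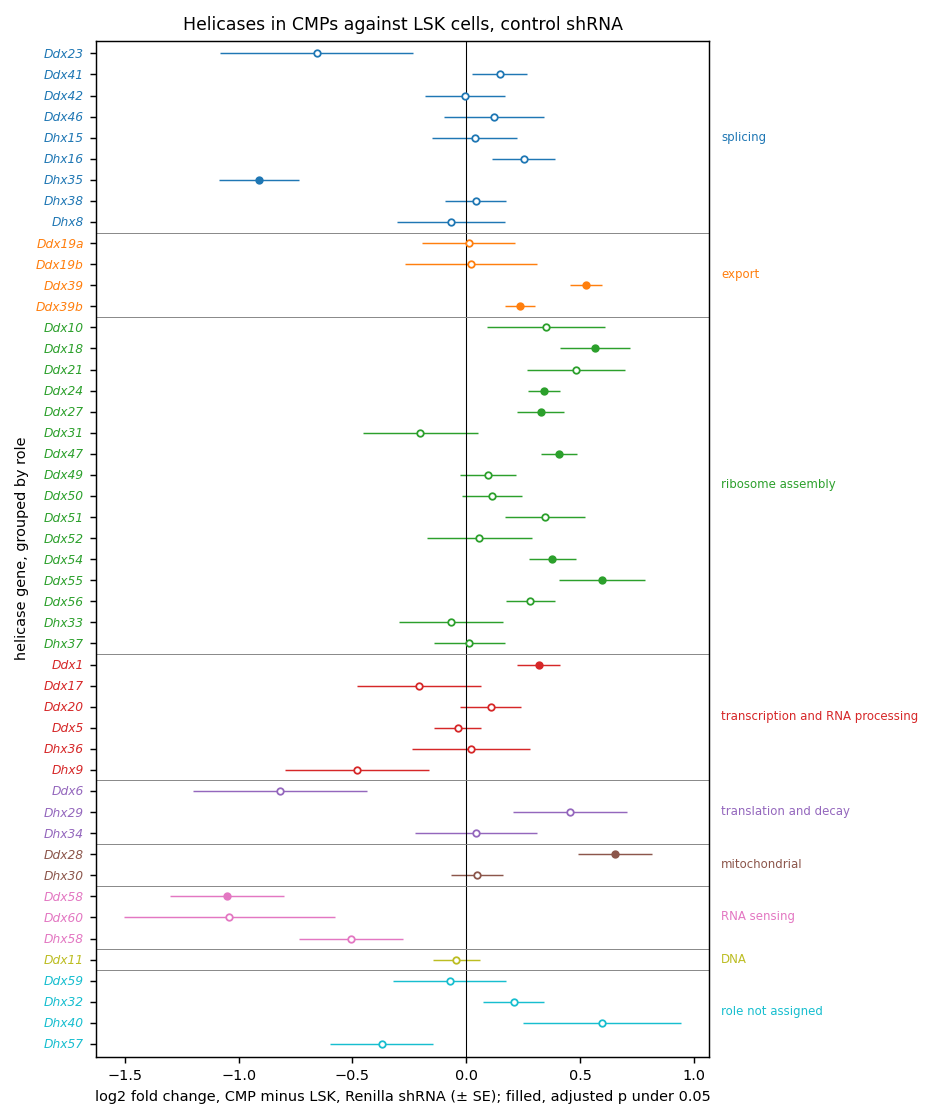
Log2 fold change of 48 helicases between CMPs and LSK cells with the Renilla shRNA (x axis, positive where higher in CMPs; bars are SE), grouped by role, with filled points for an adjusted p under 0.05. Ribosome assembly members lie mostly to the right of 0, with 6 filled, and the 3 RNA sensing members lie to the left.

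Because the RNA sensing members are known targets of interferon, whose factors bind repeats of GAAA, the letters GAAA, any 2 bases and GAAA again were searched on both strands in RefSeq promoters of GRCm38.p6 (250 bases before to 50 bases after the start). A promoter was given for 45 of the 51 members. The letters occur in 3 of the 45, namely *Ddx49*, *Ddx58* and *Ddx60*, and in 3.44% of 32851 promoters of all genes. The matches of the 2 sensors with a promoter are shown with the motif in capitals and 10 bases on each side, read along the gene.

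Ddx58: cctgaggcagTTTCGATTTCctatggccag
Ddx60: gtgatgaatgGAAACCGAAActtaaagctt
Ddx60: gagcagaagaGAAACCGAAActatccttca

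The match of *Ddx58* reads on the other strand and lies at chr4:40239814-40239823, minus strand, and those of *Ddx60* lie at chr8:61928034-61928043 and chr8:61928068-61928077, plus strand. The E-box letters CACGTG, the site that MYC and related factors bind, were searched the same way. They occur in 5 of the 45 (*Ddx25*, *Ddx4*, *Dhx33*, *Dhx35* and *Dhx40*), 11.1%, and in 7.15% of all promoters. Only 1 of the 16 ribosome assembly members, *Dhx33*, has them, and *Dhx35* has them at both chr2:158794667-158794672 and chr2:158794717-158794722. A match says only that the letters are there.

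Knockdown of *Spehd* in CMPs was tested next, first with sh10 and sh20 together against *Renilla*. No helicase passed in edgeR's quasi-likelihood test (0 of 49 tested, where 0.116% of 12912 genes passed), 16 of the 49 had an unadjusted p under 0.05 (16.6% of all genes tested did), and DESeq2 called 7 of 47 (9.39% of all genes). Among the 16, 13 had a positive fold change. Over the members 37 of 49 fold changes were above 0, with a median of 0.12 against 0.02 over all genes and of -0.04 for the members when the log2 library total was a further term in the fit. *Ddx25* and *Ddx43* were too low to be tested. All 9 splicing helicases had positive fold changes, with a median of 0.22, as had 13 of 16 ribosome assembly factors, with a median of 0.11, but with the log2 total in the fit 5 of the 9 and 10 of the 16 were positive. Of the 49 members 3 did not overlap between the groups and had higher levels with knockdown (2.83% of all genes), which were *Dhx29*, *Dhx35* and *Ddx20*, and 3 did not overlap and had lower levels (6.53% of all genes), which were *Ddx39*, *Ddx39b* and *Ddx5*. In level per exonic kilobase over all libraries the lower 3 ranked 4, 2 and 7 of the 51 members. The higher 3 ranked 32, 39 and 17, and all knockdown libraries were the deeper ones. *Dhx29*, which lets the small ribosomal subunit pass structured leaders during initiation, had the smallest adjusted p (0.62, SE 0.11, adjusted p = 0.0667). The 7 calls of DESeq2 were *Ddx20*, *Ddx59*, *Dhx29*, *Dhx33*, *Dhx35* and *Dhx8*, with higher levels, and *Ddx39*, with a lower level.

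Each shRNA was then set against the same 4 *Renilla* libraries, so the following comparisons share their controls. With sh20, 4 of 51 members passed in edgeR's quasi-likelihood test, where 6.17% of 13824 genes did, so the share was near that of all genes. *Dhx35* and *Dhx29* rose (1.9% of all genes did), and *Ddx39b* and *Ddx39* fell (4.27% of all genes did). With sh10 no member passed (0 of 51, with 1.97% of all genes passing), 16 had an unadjusted p under 0.05 (21.2% of all genes), and DESeq2 called 9 of 50, where it called 9.26% of all genes (*Ddx20*, *Ddx21*, *Dhx16*, *Dhx29*, *Dhx33*, *Dhx35* and *Dhx8* higher, *Ddx39* and *Ddx5* lower). With sh20 the libraries of 13 members lay wholly above the controls (11.9% of all genes) and of 7 wholly below (17.9%), and with sh10 those of 13 (12.4%) and 3 (12.9%). The median log2 fold change of the members was 0.16 with sh10 and 0.07 with sh20, beside -0.01 and 0.01 over all genes, and 0.06 and -0.12 with the log2 total in the fit. Leaving out 1 library moved the sh10 median from 0.09 (without CMP sh10 replicate B) to 0.21 (without CMP Renilla replicate A), and the sh20 median from 0.02 (without CMP sh20 replicate C) to 0.17 (without CMP sh20 replicate B), so these ranges overlap.

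The DECD pair fell with sh20. *Ddx39b* was at 209 and 215 CPM with sh20 (replicates B and C), at 254, 254 and 254 CPM with sh10 and at 272, 285, 268 and 283 CPM with *Renilla*. The 3 groups did not overlap. The log2 fold change was -0.37 with sh20 (SE 0.05, adjusted p = 0.00930) and -0.13 with sh10 (SE 0.05, adjusted p = 0.155), and the shRNAs differed by -0.23 (SE 0.06, adjusted p = 0.0438, all edgeR's quasi-likelihood test). It was the only member called between the shRNAs (1 of 51, where 6.41% of all genes passed), whose libraries did not overlap for 8 members higher with sh20 (18.2% of all genes) and 13 lower (24.5%). That call was lost without CMP sh20 replicate B or without any one of the 3 sh10 libraries, with adjusted p from 0.0863 to 0.129. It was also lost without a filter on low counts (0.205), with the log2 total in the fit (0.223), with the per-base offset (0.0575) and with the replicate letter as a block (0.131). *Ddx39* was at 298 and 306 CPM with sh20, at 324, 329 and 313 CPM with sh10 and at 384, 376, 343 and 375 CPM with *Renilla*. Every knockdown library lay below every control, and the log2 fold change was -0.27 with sh20 (SE 0.06, adjusted p = 0.0334) and -0.20 with sh10 (SE 0.05, adjusted p = 0.0762). *Ddx19a* and *Ddx19b* had fold changes of -0.20 and -0.15 with sh20 and of 0.32 and 0.61 with sh10, and none of these passed.

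*Dhx35* was at 68.8 and 61.4 CPM with sh20, at 42.4, 41.9 and 47.6 CPM with sh10 and at 22, 32.2, 33.9 and 18.6 CPM with *Renilla*. Both knockdown groups lay above the controls without overlap, and the sh20 libraries lay above the sh10 libraries. The log2 fold change was 1.31 with sh20 (SE 0.23, adjusted p = 0.0152) and 0.71 with sh10 (SE 0.21, adjusted p = 0.104) by edgeR's quasi-likelihood test. The CMP level with sh20 (mean 65.1 CPM, SD 5.29, n = 2) was above that of LSK control cells (51.3 CPM, SD 5.86, n = 4), a difference that was not tested. *Dhx29* was at 145 and 137 CPM with sh20, at 131, 158 and 113 CPM with sh10 and at 99.9, 87.9, 91.0 and 78.9 CPM with *Renilla*. All 5 knockdown libraries exceeded the controls, by 0.68 with sh20 (SE 0.14, adjusted p = 0.0277) and 0.58 with sh10 (SE 0.13, adjusted p = 0.0532).

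**Figure D4:**
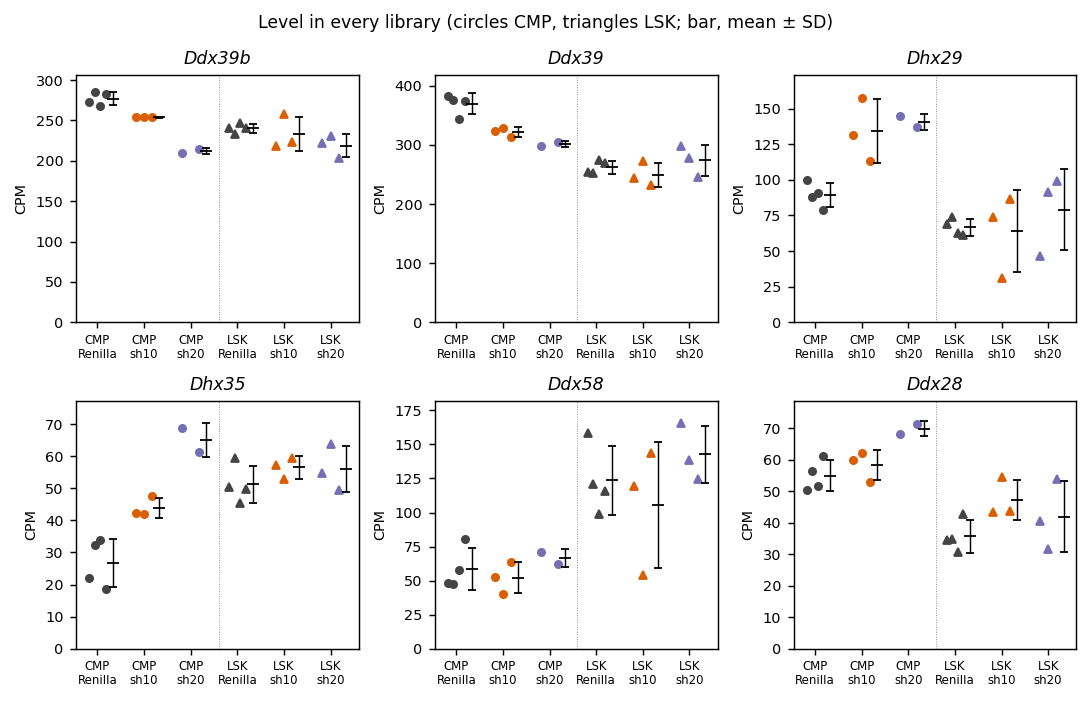
CPM (y axis, from 0) of 6 helicases in each of the 19 libraries, by cell type and shRNA, with the mean and SD beside each group. In CMPs Ddx39b steps down from Renilla to sh10 to sh20 and Dhx35 steps up, while in LSK cells the groups overlap for Dhx35 and the sh20 libraries of Ddx39b lie below the Renilla libraries.

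The calls with sh20 rested on 2 libraries. Between these 2 libraries the chi-square of the counts was 27.8 per gene. It was 4.31 to 8.07 between other CMP libraries of one group. Without CMP sh20 replicate B 2 members passed, and the adjusted p of *Dhx29* and *Ddx39* was 0.0713 and 0.0931 (edgeR), and without CMP sh20 replicate C 9 passed. *Ddx39* also lost its call without CMP Renilla replicate A, B or D and *Dhx29* without replicate B or D, while *Ddx39b* and *Dhx35* kept theirs whichever of the 6 compared libraries was left out, with adjusted p up to 0.0318 and 0.0403. With the replicate letter as a block 0 of the 4 passed. When all 19 libraries were fitted with the log2 of their total as a further term, 0 of the 4 passed with sh20, and the fold change of *Dhx29* was 0.08 (adjusted p = 0.974), that of *Ddx39* -0.05 (0.926), that of *Ddx39b* -0.17 (0.654) and that of *Dhx35* 1.01 (0.303). With the per-base offset *Ddx39* was at -0.16 (adjusted p = 0.102) and lost its call. Stem cell markers summed to 1419 to 1669 CPM with sh10, 1297 to 1571 CPM with sh20 and 1753 to 1875 CPM with *Renilla* in CMPs. Erythroid and megakaryocyte markers summed to 1943 to 2048, 2173 to 2188 and 2246 to 2681 CPM in the same order, without overlap, and 3 of the 9 fell with sh20 and 1 with sh10 by edgeR, which called 6.17% and 1.97% of all genes. Of the 10 stem cell markers 1 fell with each shRNA. Granulocyte and monocyte markers summed to 1017 to 1257 CPM with sh10, 705 to 715 CPM with sh20 and 567 to 828 CPM with *Renilla*, with 1 of 8 tested higher with sh10 and 1 lower with sh20. Of 4 lymphoid markers tested 1 fell with sh10. The part of these lists in the helicase levels was not tested.

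Other members of CMPs had values near the threshold with one shRNA or the other. *Dhx33*, which unwinds ribosomal RNA precursors, was at 153, 157 and 135 CPM with sh10 and at 116, 87.2, 84.6 and 69.1 CPM with *Renilla*, without overlap, and its log2 fold change was 0.73 with sh10 (SE 0.16, adjusted p = 0.0538) and 0.52 with sh20 (SE 0.18, adjusted p = 0.118) in edgeR. *Ddx5*, the p68 coactivator, was at 282, 282 and 302 CPM with sh10 and within 327 to 332 CPM with *Renilla*, a log2 fold change of -0.20 (SE 0.05, adjusted p = 0.0570). *Ddx21*, which couples ribosomal RNA transcription and processing, was at 304, 340 and 285 CPM with sh10, at 200 and 277 CPM with sh20 and at 258, 247, 197 and 194 CPM with *Renilla*. Its sh10 libraries lay above the controls (0.46, SE 0.14, adjusted p = 0.101) and its sh20 libraries did not. The fold change of *Ddx59* with sh20 was 0.84 (SE 0.22, adjusted p = 0.0552). *Ddx41*, the myeloid neoplasm gene, had fold changes of 0.02 with sh10 (SE 0.09) and 0.07 with sh20 (SE 0.10), and its 9 CMP libraries ran from 164 to 204 CPM.

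**Figure D5:**
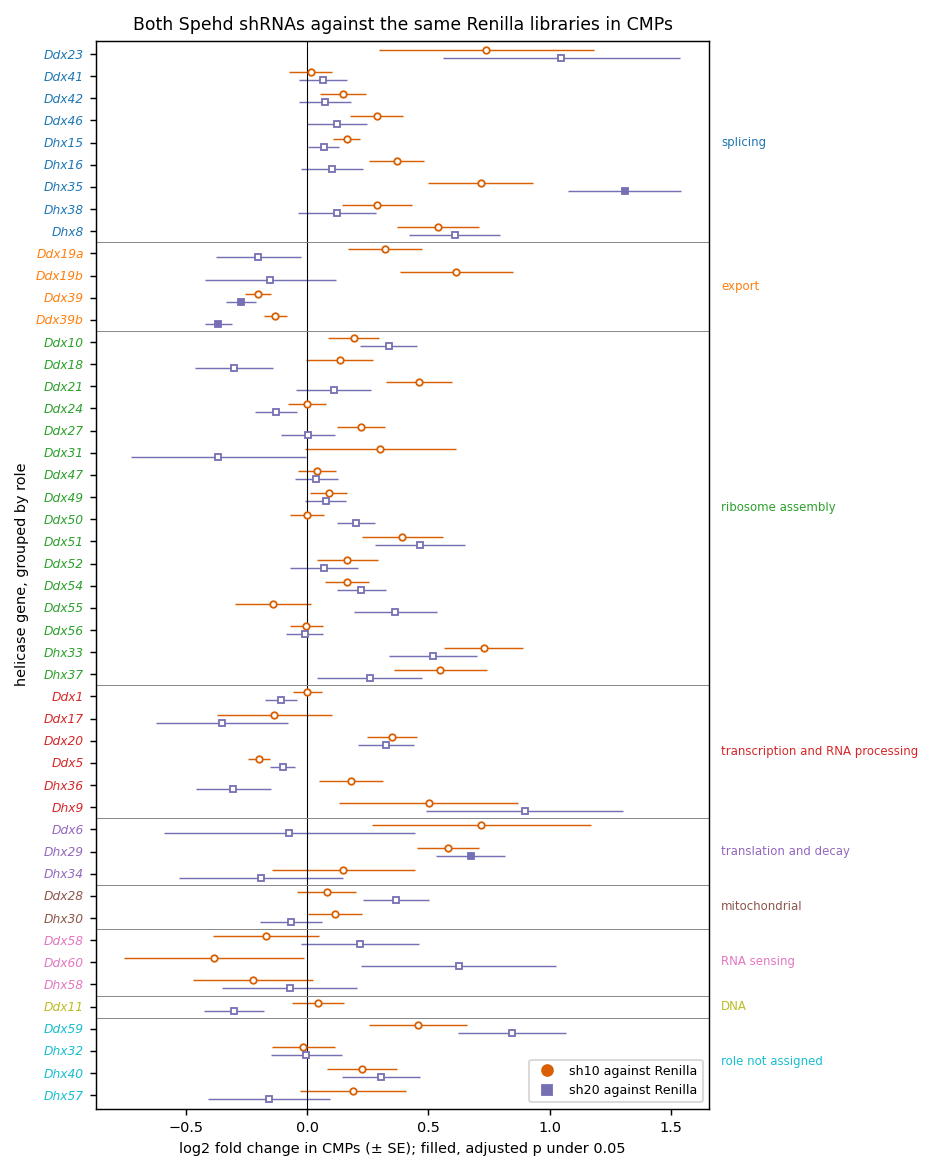
Log2 fold change in CMPs (x axis; bars are SE) of 48 helicases with sh10 (circles) and sh20 (squares) against the same 4 Renilla libraries, grouped by role, with filled symbols for an adjusted p under 0.05. The filled symbols are Dhx35 and Dhx29 to the right and Ddx39 and Ddx39b to the left, all with sh20, and both symbols of all 9 splicing members lie to the right of 0, where 6 with sh10 and 4 with sh20 were positive once the log2 total was in the fit.

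In LSK cells no helicase differed with knockdown by the test. With both shRNAs together 0 of 50 members and 0% of 13441 genes passed in edgeR's quasi-likelihood test, 4 members had an unadjusted p under 0.05 (3.66% of all genes), and DESeq2 called 0 (0% of all genes). With sh10, with sh20 and between the shRNAs again 0 of 50 members and 0% of 13828 genes passed, with 2, 3 and 3 members at an unadjusted p under 0.05 (3.3%, 8.33% and 9.17% of all genes). DESeq2 called 0 members in each, where 0.00986%, 1.16% and 1.47% of all genes were called. The median log2 fold change was 0.04 with both shRNAs, 0.02 with sh10 and 0.10 with sh20, and between -0.01 and 0.01 over all genes. When 1 library was left out these medians ran from 0.00429 to 0.08, from -0.04 to 0.06 and from 0.03 to 0.11. *Ddx25* was too low to be tested. *Dhx35* was at 57.2, 52.8 and 59.6 CPM with sh10, at 54.8, 63.8 and 49.6 CPM with sh20 and at 50.3, 59.5, 45.6 and 49.8 CPM with *Renilla*, so the groups overlapped. *Ddx39b* was at 219, 258 and 223 CPM with sh10, at 222, 230 and 203 CPM with sh20 and at 241, 233, 246 and 241 CPM with *Renilla*. All 3 sh20 libraries of *Ddx39b* lay below the controls, with a log2 fold change of -0.14 (SE 0.10, adjusted p = 0.798, edgeR), and the sh10 libraries overlapped them. Mature neutrophil markers (7 genes) summed to 69.9 to 294 CPM with sh10, 4.74 to 7.50 CPM with sh20 and 5.18 to 312 CPM with *Renilla* in these cells. Red cell markers (6 genes) summed to 8.34 to 40.5, 5.09 to 105 and 5.18 to 10.7 CPM in the same order, and the 4 that were tested had positive fold changes with each shRNA. Stem cell markers were lower with sh10 (1887 to 2517 CPM) than with *Renilla* (2626 to 3032 CPM) without overlap, and lymphoid markers were at 334 to 464 CPM with sh20 and 482 to 584 CPM with *Renilla*. No gene of these lists passed the test, and their part in the helicase levels was not tested.

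The smallest adjusted p in LSK cells belonged to *Dhx58* with sh20. It was at 129, 82.2 and 95.1 CPM with sh20 and at 54.2, 62.5, 60.8 and 64.0 CPM with *Renilla*, while sh10 gave 55.6, 95.4 and 56.1 CPM, of which the second is replicate B. The sh20 libraries lay above the controls, as they did for 3 members (5.19% of all genes) and below for 3 (6.73%), with a log2 fold change of 0.76 (SE 0.23, adjusted p = 0.348) and, without LSK sh10 replicate B in the fit, of 0.74 (SE 0.16, adjusted p = 0.0966). *Dhx58* shares exons with the opposite-strand gene *Dhx58os*. *Ddx19a* had lower levels with sh20, at 18.8, 27.2 and 17.5 CPM against 54.4, 36.8, 27.0 and 33.8 CPM, which overlapped (-0.84, SE 0.27, adjusted p = 0.380). The fold change of *Ddx23* with sh10 was 0.44 with all libraries and -0.15 without replicate B, where it was at 23.8 CPM beside 10.1 and 9.45 CPM in the other sh10 libraries.

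Whether knockdown acted differently in the populations was tested as the mean effect of the shRNAs in CMPs minus that in LSK cells. No member passed in edgeR's quasi-likelihood test (0 of 51, where 0.0531% of 15066 genes did), 6 had an unadjusted p under 0.05 (10.1% of all genes), and DESeq2 called 1, *Dhx35* (0.624% of all genes). The difference was 0.86 for *Dhx35* (SE 0.23, adjusted p = 0.232), and it lay between 0.72 and 0.99 whichever library was left out. All 9 splicing helicases had a positive difference, with a median of 0.26, against -0.04 over all genes tested. That median was 0.15 without LSK sh10 replicate B and 0.16 with the log2 total in the fit, and all 9 were positive in both. The largest among members with at least 50 counts was that of *Dhx9*, an RNA helicase also called RNA helicase A, at 0.97 (SE 0.41, adjusted p = 0.455).

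Genes outside the rule that work with these helicases gave the following counts, to be read against the shares of all genes called by edgeR, which were 0.116% in CMPs with both shRNAs together, 1.97% with sh10, 6.17% with sh20 and 19.8% between CMPs and LSK cells. Of 18 other RNA helicases, among them *Ddx3x*, the *Eif4a* genes and *Upf1*, 0 were called in CMPs with both shRNAs together (median 0.23), 1 rose with sh10, 1 fell with sh20, and 1 was higher in CMPs than in LSK cells. Among 15 MIF4G domain proteins and other partners of the eIF4A fold, which switch DEAD box ATPases on or off, 3 rose with sh10, 2 fell with sh20 and 3 exceeded their LSK level in CMPs. The 18 G-patch proteins, which activate DEAH helicases, had 0 calls with either shRNA in CMPs, 2 higher and 1 lower in CMPs than in LSK cells. None of these genes was called in LSK cells with knockdown by edgeR.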

How the data were processed

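RNA from sorted LSK cells and CMPs was amplified with a SMART-Seq v4 kit. The authors aligned reads to mm10 with STAR, removed duplicates with Picard and counted reads on GENCODE vM11 genes with HTSeq. The values deposited are whole-number counts per gene and library. The study's methods give default settings for all software unless specified, and HTSeq counts by strand by default. Whether the kit keeps the strand is not given in the sources used here. Removing duplicates limits how far the count of a highly covered gene can grow with depth. Reads on no gene (51.9% to 53.8% of the total of each library) and on several genes (0.694% to 0.827%) were left out.

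Groups came from the labels. Counts were tested with edgeR 4.0.16 (quasi-likelihood, TMM, filterByExpr at 10 counts and a total of 15, in R 4.3.3), adjusted by the Benjamini-Hochberg method over all genes tested, threshold 0.05, and with DESeq2 1.42.0 as an alternative. Fits used the 9 CMP libraries, the 10 LSK libraries or, between cell types, all 19. CPM were scaled by TMM. Python 3.11.15 with pandas 2.3.3, numpy 2.4.6, matplotlib 3.10.9 and scipy 1.17.1 was used for the rest, and the tests were checked on simulated data. Named were the members called (at most 12 a comparison), the 4 with the largest change among those averaging at least 50 counts, and set examples of each role. *Ddx20*, *Ddx49*, *Ddx56* and *Dhx16* were named after their values were seen. The members, roles, lists and tests were chosen with earlier results of these data known. Alternatives were other normalizations and filters, the replicate block, a depth covariate, a length offset and leaving out each library. An offset for counts per exonic base and leaving out LSK sh10 replicate B where it is in neither group were chosen after seeing the data. Coordinates and sequences are those of GENCODE vM21 (GRCm38), a later annotation of the same build, matched by symbol to all 51 members.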

Additional observations from a re-analysis of the deposited data

Results flagged for a closer look

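Among 36 members named or set as examples of a role, the 72 groups of 4 *Renilla* libraries were searched for a library far from the other 3. One was found, and about 1 in 20 such groups would be by chance. *Dhx40*, a DEAH helicase with no assigned role, was at 32.7 CPM in LSK Renilla replicate D and at 17.7 to 19.2 CPM in the other LSK *Renilla* libraries. The gap to the nearest library was 0.901 of the range of the group, above Dixon's 95% critical value. No other named member had such a library, and the test of the difference in knockdown between the populations called 0 members.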

How the results depend on the processing

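With sh10 and sh20 together in CMPs, where 0 members passed, 2 did with upper quartile normalization, 5 with the shRNAs as separate groups, 2 with all 19 libraries in 1 fit, 7 with DESeq2, and 0 to 3 when a library was left out (3 without CMP sh20 replicate B). With sh10 in CMPs (0) it was 2 with upper quartile normalization, 6 without a filter, 3 with at least 10 counts in every library, 9 with DESeq2 and 1 with the offset for exonic length. With sh20 in CMPs (4) it was 0 with the depth covariate, 2 with all 19 libraries in 1 fit, and 2 to 9 when a library was left out. It was 2 without CMP sh20 replicate B or CMP Renilla replicate D and 9 without CMP sh20 replicate C. Between the shRNAs in CMPs (1) it was 0 without a filter, with the depth covariate and with the per-base offset, 2 with the offset for exonic length, and 0 to 6 without a library (6 without CMP sh20 replicate C). For the difference in knockdown between populations (0) it was 1 without a filter (*Dhx8*) and 1 with DESeq2 (*Dhx35*). Between CMPs and LSK cells (12) it ran from 8 to 15. The LSK knockdown counts were 0 under every alternative run. The cause of these shifts was not tested.

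The replicate letters as a block took the count with sh20 in CMPs from 4 to 0 and between the shRNAs from 1 to 0. Deviations from the group means correlated at -0.110 to 0.104 in 16 pairs with the same letter and cell type, which carry different shRNAs. Those pairs cannot show whether a CMP and an LSK library came from one animal. For libraries of one letter and one shRNA across the cell types (9 pairs) the correlation was -0.000355 to 0.238 (median 0.0542). It was -0.200 to 0.106 (median -0.0296) for 22 such pairs of different letters. The main fits compared CMPs with LSK cells without pairing by letter. The fold change of *Ddx23* with sh10 in LSK cells was 0.44 and ran from -0.15 (without LSK sh10 replicate B) to 0.67 (without LSK sh10 replicate C). With the depth covariate the median over the members was -0.04 with both shRNAs and -0.12 with sh20 in CMPs. Members under 10 counts, such as *Ddx25*, are too shallow for any comparison.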
